A study of Mus musculus with 6 samples.

Results

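Zic1, Zic2, Zic4 and Zic5 are 4 genes that lie as 2 head-to-head pairs in the mouse genome, with Zic1 beside Zic4 on chromosome 9 and Zic5 beside Zic2 on chromosome 14. They were taken by name from the 22367 protein-coding genes of the GENCODE M1 annotation, and every ATAC-seq peak within 20 kb of their annotated bodies was collected. That gave 30 peaks: 7 of 28965 in embryonic stem cells (ESCs), 12 of 50225 in D-EPSCs and 11 of 46601 in L-EPSCs. Overlapping peaks of the 3 lists were merged into regions, of which 14 out of 65518 fell at the Zic genes, 5 at the Zic1–Zic4 locus and 9 at the Zic5–Zic2 locus.

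ATAC-seq uses the Tn5 transposase to cut accessible DNA, so that a peak marks a stretch where many fragments were recovered. The study compared J1 ESCs, a line of strain 129SV, with 2 kinds of expanded potential stem cells (EPSCs) that were converted from them, with 2 technical replicates of each state. The ESC medium held serum, LIF and the inhibitors CHIR99021 and PD0325901. D-EPSC medium was based on N2B27 and held KSR, LIF, CHIR99021, dimethindene maleate and minocycline hydrochloride, while L-EPSC medium was based on DMEM/F12 and held KSR, LIF, CHIR99021, PD0325901, A-419259, XAV939, JNK inhibitor VIII and SB203580. LIF and CHIR99021 were therefore common to the 3 states, PD0325901 was common to ESCs and L-EPSCs, and all cells derive from 1 cell line. ESCs grew on mouse embryonic fibroblast feeders or on gelatin, and the EPSCs were kept without feeders before ATAC-seq. Each state has 1 peak list and no value per replicate, so no value has a replicate error, no test was possible, and the sequencing depth behind each list is unknown. How replicate libraries were joined into a list, and whether peaks were filtered after calling, is not given in the sources used here. All counts, widths and ratios below describe these 3 lists. A place with no listed peak is not shown to be closed chromatin.

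Zic genes encode transcription factors with C2H2 zinc fingers that are related in sequence to those of the GLI family, which carries the Hedgehog signal. They are known for their roles in the neural plate, the neural tube and the cerebellum. Zic1 and Zic4 lie together at a locus whose loss is associated with malformation of the cerebellum, Zic2 is a gene of forebrain midline development whose loss causes holoprosencephaly, and Zic5 takes part in neural tube closure and neural crest formation. Zic2 is also known as a factor bound at enhancers of embryonic stem cells.

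Coordinates below are of the mouse build mm9 (NCBIM37). Zic1 lies at chr9:91252896-91260648 on the minus strand and has 3 annotated transcripts. Zic4 lies at chr9:91257251-91284186 on the plus strand and has 12, of which Zic4-002 starts inside Zic1, so that the annotated bodies of both genes overlap. Zic5 lies at chr14:122856017-122864899 on the minus strand and has 2 transcripts, and Zic2 at chr14:122874604-122879074 on the plus strand has 3. The long noncoding RNA gene 2610035F20Rik lies between Zic5 and Zic2 on the minus strand at chr14:122869506-122872801.

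The promoters are shown first because the lists differ in how far their peaks reach over them. RefSeq promoter sequences (300 bases that run from upstream of the start to shortly after it, from a table of build GRCm38.p6) were held for Zic1, Zic4 and Zic5, and each had 1 exact match in mm9. They are written 5′ to 3′ on the strand of the gene, and capitals mark matches to any of 10 motifs that were searched on both strands without mismatch. Zic1 lies at chr9:91260557-91260856 on the minus strand, Zic4 at chr9:91263560-91263859 on the plus strand and Zic5 at chr14:122864831-122865130 on the minus strand.
Zic1 promoter: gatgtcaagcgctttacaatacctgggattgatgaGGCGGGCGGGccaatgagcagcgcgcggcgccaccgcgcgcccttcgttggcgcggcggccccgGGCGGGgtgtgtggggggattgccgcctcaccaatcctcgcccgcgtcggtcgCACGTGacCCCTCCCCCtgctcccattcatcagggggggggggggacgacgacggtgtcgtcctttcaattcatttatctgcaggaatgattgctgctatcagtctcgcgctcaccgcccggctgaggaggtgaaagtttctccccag
Zic4 promoter: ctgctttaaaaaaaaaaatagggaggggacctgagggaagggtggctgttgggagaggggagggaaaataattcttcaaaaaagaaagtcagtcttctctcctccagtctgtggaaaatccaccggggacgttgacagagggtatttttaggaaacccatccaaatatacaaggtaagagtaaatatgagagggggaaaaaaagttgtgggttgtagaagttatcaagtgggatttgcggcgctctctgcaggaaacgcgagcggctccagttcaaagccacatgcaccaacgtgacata
Zic5 promoter: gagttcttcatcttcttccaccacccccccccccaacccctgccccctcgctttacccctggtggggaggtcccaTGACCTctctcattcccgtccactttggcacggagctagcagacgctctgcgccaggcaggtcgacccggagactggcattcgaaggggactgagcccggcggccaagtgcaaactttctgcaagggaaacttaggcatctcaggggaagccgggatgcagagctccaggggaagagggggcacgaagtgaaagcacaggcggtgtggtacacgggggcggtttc

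The motifs were Zic (CAGCAGG), GLI (TGGGTGGTC), octamer (ATGCAAAT), SOX (ACAAAG), TCF/LEF (ATCAAAG, which shares CAAAG with the SOX motif), E box (CACGTG), GC box (CCCGCC), NRF1 (GCGCATGCG), ZNF281 (CCCTCCCCC) and the nuclear receptor half-site (AGGTCA). In the Zic1 promoter the capitals are 3 GC boxes, 1 E box and 1 ZNF281 match, and at least 1 match to these motifs was held by 35.3%, 7.15% and 5.16% of the 32851 promoters of the table. The Zic5 promoter held 1 nuclear receptor half-site, and 16.3% of promoters held at least 1. Only CCCGCC, or GGCGGG on the other strand, was counted as a GC box, so the letters GGGCGG near the end of the Zic5 promoter are unmarked. The Zic4 promoter held none of the 10 motifs, and its GC content was 46.0%, against 65.3% for Zic1 and 62.7% for Zic5. Peak coverage of these 300 bases differed between the lists. At Zic1 the D-EPSC list covered all 300 bases and the other lists covered 0. At Zic5 the ESC, D-EPSC and L-EPSC lists covered 10, 270 and 87 bases. None of the 3 lists covered a base of the Zic4 promoter. A match of letters is a description and not a binding site.

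The Zic1–Zic4 locus, from 20 kb before Zic1 to 20 kb after Zic4, spans 71291 bp. The ESC list held 2 peaks there, and each EPSC list held 4. With each list limited to its 28965 widest peaks, as many as the ESC list holds, the counts were 2 for ESCs, 3 for D-EPSCs and 2 for L-EPSCs, so the higher L-EPSC count was not kept. The bases under peaks were 332 for ESCs, 2915 for D-EPSCs and 1580 for L-EPSCs, which are 0.466%, 4.09% and 2.22% of the locus. The covered bases were thus 8.78 times as many in D-EPSCs and 4.76 times as many in L-EPSCs as in ESCs. Over the whole lists the corresponding ratios were 1.86 and 1.67, so the Zic1–Zic4 ratios lay well above those of the lists as wholes. When each peak was set to 400 bp, which leaves only the number of peaks, both ratios at Zic1–Zic4 were 2. By number of peaks, the whole lists had ratios of 1.73 and 1.61, so by peak number the locus was close to the lists as wholes.

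**Figure D1:**
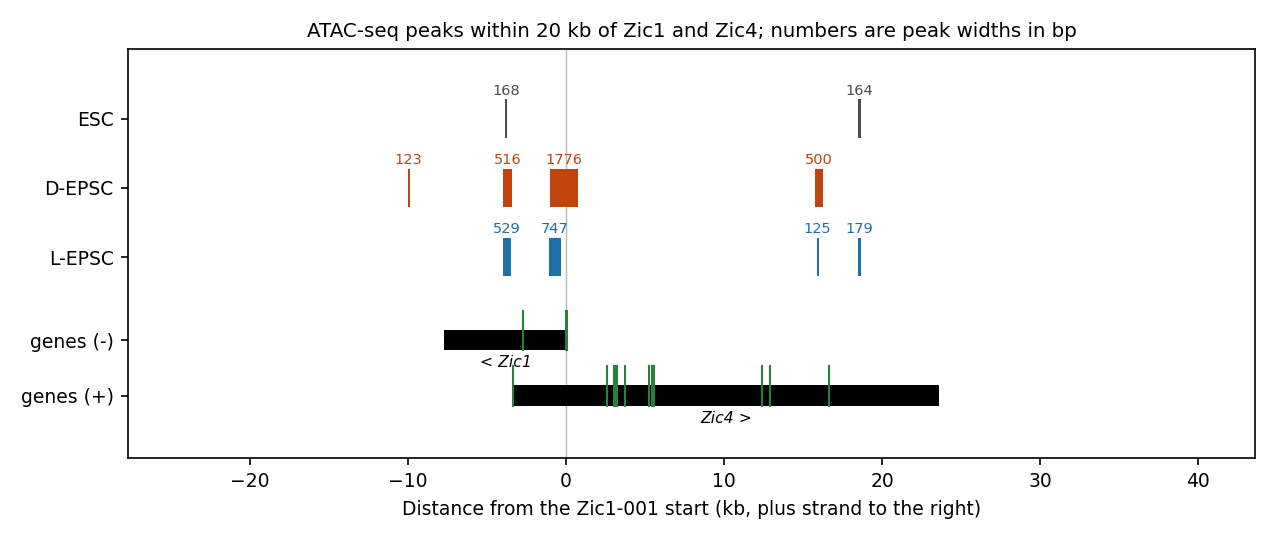
Peaks of the ESC, D-EPSC and L-EPSC lists at the Zic1–Zic4 locus, plotted by distance in kb from the start of Zic1-001, with bars drawn to scale and peak widths in bp above them. Black bars are the annotated genes by strand and green ticks are annotated transcript starts. ESCs had 2 narrow peaks of 168 and 164 bp, while D-EPSCs and L-EPSCs had 4 each, with the 1776 bp D-EPSC peak over the Zic1 start.

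The map of the Zic1–Zic4 peaks shows where the added bases lay. At the start of Zic1 the D-EPSC list held a peak of 1776 bp (chr9:91259612-91261387) and the L-EPSC list a peak of 747 bp (chr9:91259507-91260253), and the ESC list held none. The D-EPSC peak ran from 781 bp upstream to 994 bp downstream of the Zic1-001 start, with 44.0% of it upstream. The L-EPSC peak lay wholly inside the gene, from 353 to 1099 bp downstream of that start and within exon 1 of 3, where 349 of its bases were coding. Both EPSC lists therefore had a peak at the 5′ end of Zic1, but the D-EPSC list alone had one over the start itself.

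An intronic place of Zic1, just before its last exon, had a peak in each of the 3 lists. Its widths were 168 bp for ESCs, 516 bp for D-EPSCs and 529 bp for L-EPSCs, and the ESC peak lay inside both EPSC peaks. Only 8 bases of the L-EPSC peak reached the last exon of Zic1-001. This place also lies upstream of the start of Zic4-002, from which the D-EPSC peak was 93 bp away, the L-EPSC peak 126 bp and the ESC peak 375 bp. The ESC peak (chr9:91256709-91256876, minus strand), shown because its 168 bases were under a peak in all 3 lists, held none of the 10 motifs.
ESC peak in Zic1: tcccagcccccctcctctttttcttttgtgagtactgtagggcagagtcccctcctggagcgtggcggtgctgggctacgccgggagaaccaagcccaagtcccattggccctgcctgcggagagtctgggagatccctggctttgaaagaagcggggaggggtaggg

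Inside Zic4 the lists differed in where they had a peak. An intron held a D-EPSC peak of 500 bp (chr9:91276350-91276849), and the L-EPSC list had 125 bp of it (chr9:91276468-91276592), with no ESC peak. The GC content of that region was 75.2%, higher than in 99.4% of all regions. Farther along the gene, at the edge of exon 4 of 5 of Zic4-001, the ESC list held a peak of 164 bp and the L-EPSC list a peak of 179 bp, with 83 and 66 bases in the exon, and the D-EPSC list held none. The 147 bases shared by those peaks (chr9:91279102-91279248, plus strand) are shown as the only region near the Zic genes that was listed in ESCs and L-EPSCs but not in D-EPSCs.
Zic4 bases shared by the ESC and L-EPSC peaks: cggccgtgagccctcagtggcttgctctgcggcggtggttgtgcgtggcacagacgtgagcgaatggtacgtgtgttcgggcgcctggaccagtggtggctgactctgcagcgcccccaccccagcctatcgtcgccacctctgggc

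The remaining region of the locus was a D-EPSC peak of 123 bp in intergenic DNA past the 3′ end of Zic1 (chr9:91250581-91250703). Its observed-to-expected CpG ratio, which measures how far CpG pairs are kept in a sequence, was 1.09 and exceeded that of 99.8% of all regions. Beyond the locus the lists were sparse. The next ESC peak lay 1066255 bp to the left of the 20 kb windows and 840708 bp to the right. For D-EPSCs those distances were 124389 and 514353 bp, and for L-EPSCs 83957 and 840711 bp. Within 500 kb on each side of Zic1, a distance chosen after the values were seen, the ESC, D-EPSC and L-EPSC lists held 2, 5 and 5 peaks, against medians of 19, 33 and 31 over all protein-coding genes. As few or fewer peaks were found around 5.84%, 8.32% and 8.97% of genes.

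The Zic5–Zic2 locus spans 63058 bp and held more peaks in every list, with 5 for ESCs, 8 for D-EPSCs and 7 for L-EPSCs. Among the 28965 widest peaks of each list the counts were 5, 5 and 6. The bases under peaks were 3280 for ESCs, 5850 for D-EPSCs and 4784 for L-EPSCs, or 5.2%, 9.28% and 7.59% of the locus. Covered bases in D-EPSCs were 1.78 times those in ESCs, and those in L-EPSCs were 1.46 times as many. Both ratios were a little below the 1.86 and 1.67 of the lists as wholes. The next peaks outside the windows were close, at 4101 and 34150 bp for ESCs, 2366 and 28782 bp for D-EPSCs, and 2357 and 34180 bp for L-EPSCs.

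**Figure D2:**
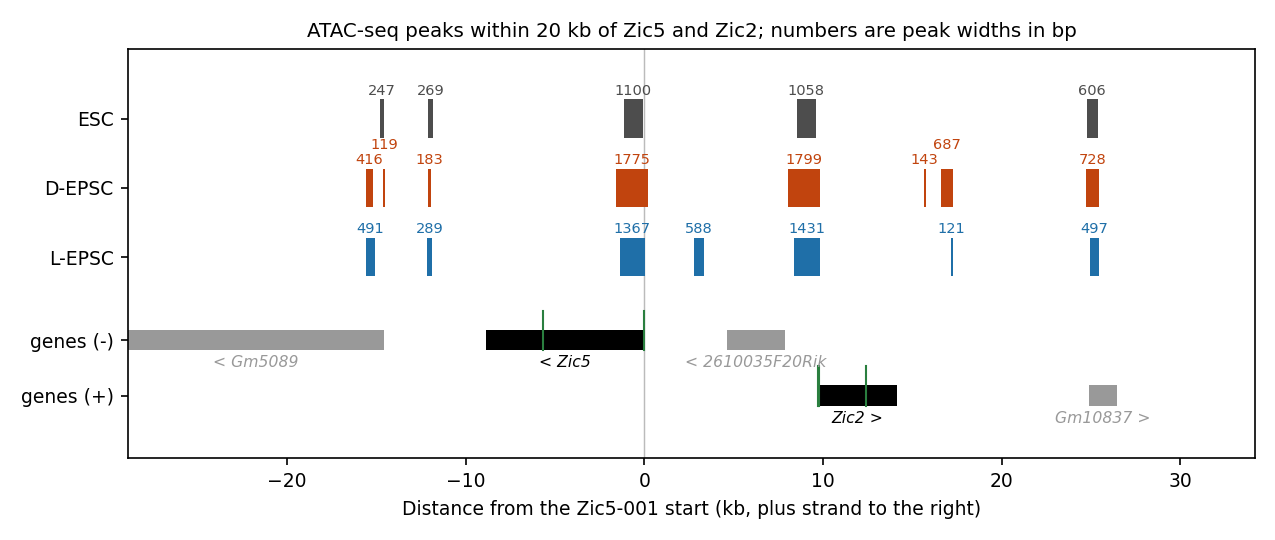
Peaks of the 3 lists at the Zic5–Zic2 locus, plotted by distance in kb from the start of Zic5-001, with bars drawn to scale and peak widths in bp above them. Black bars are Zic5 and Zic2, grey bars are other annotated genes, and green ticks are annotated starts of the Zic transcripts. Each list had a peak at Zic5-001 and at Zic2-001, widest in D-EPSCs (1775 and 1799 bp) and narrowest in ESCs (1100 and 1058 bp).

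At the start of Zic5 the peak was 1100 bp wide for ESCs, 1775 bp for D-EPSCs and 1367 bp for L-EPSCs. These peaks lay mainly over exon 1 of 2 of Zic5-001, where 1100, 1574 and 1349 of their bases fell, with 799, 1214 and 989 of them coding. The ESC peak stopped 59 bp inside the gene, whereas the D-EPSC and L-EPSC peaks reached 201 and 18 bp upstream of the start. The ESC peak lay inside the L-EPSC peak, which lay inside the D-EPSC peak.

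At Zic2 the peaks lay mainly upstream of the gene and were 1058, 1799 and 1431 bp wide in the ESC, D-EPSC and L-EPSC lists. The ESC peak lay wholly upstream and ended 167 bp before the Zic2-001 start and 114 bp before the start of Zic2-201, the outermost of the gene. The D-EPSC peak had 1699 bp upstream of the Zic2-001 start and 100 bp after it, and the L-EPSC peak had 1352 and 79 bp. Here too the ESC peak lay inside the L-EPSC peak and the L-EPSC peak inside the D-EPSC peak. The 114 bases between the end of the ESC peak and the Zic2-201 start (chr14:122874491-122874604, plus strand) were under a peak in both EPSC lists and not in the ESC list. Their GC content was 77.2%, their CpG ratio 1.09, and the capitals mark 5 GC boxes, some of which overlap.
Zic2 bases from the ESC peak to the start: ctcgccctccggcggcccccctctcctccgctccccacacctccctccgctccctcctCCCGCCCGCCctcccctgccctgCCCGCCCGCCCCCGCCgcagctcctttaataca

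**Figure D3:**
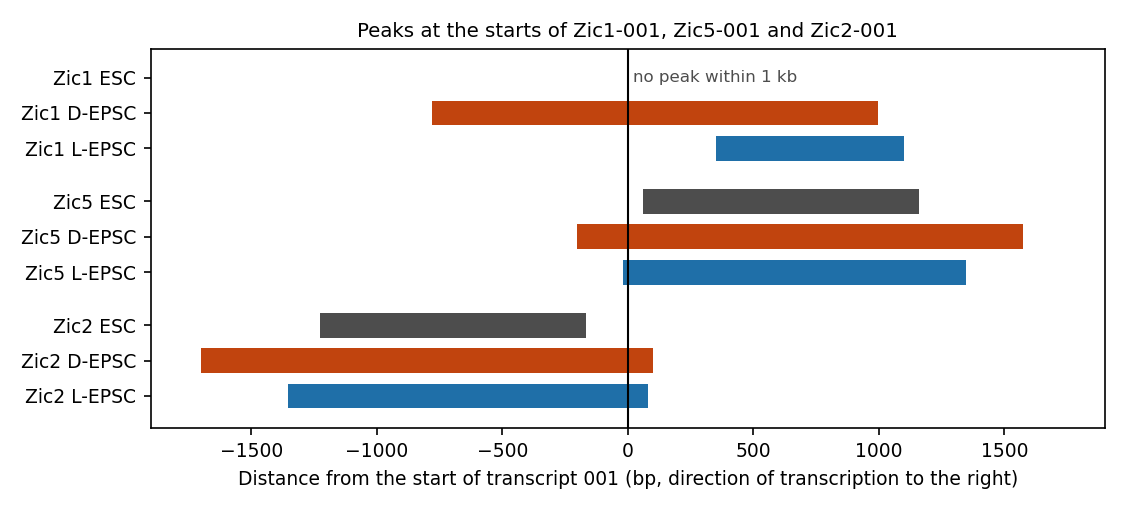
Extent of the peaks at the starts of Zic1-001, Zic5-001 and Zic2-001 in the ESC (grey), D-EPSC (orange) and L-EPSC (blue) lists, in bp from the start with the direction of transcription to the right. The black line is the annotated start. D-EPSC peaks cross all 3 starts, L-EPSC peaks cross those of Zic5 and Zic2, and ESC peaks cross none.

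The plot of peak extents sets these starts side by side. Of the 20 annotated Zic transcript starts, 0 lay inside an ESC peak, 5 inside a D-EPSC peak and 3 inside an L-EPSC peak. Over all 78248 transcript starts of protein-coding genes the shares were 34.2%, 48.4% and 45.3%, so the counts over all 20 Zic starts were below the background in each list. Zic4 holds 12 of the 20 starts and had 0 inside a peak of any list, so the low D-EPSC share depends on Zic4. The 5 D-EPSC starts were 2 of the 3 of Zic1, 2 of the 3 of Zic2 and 1 of the 2 of Zic5. The 3 L-EPSC starts were 2 of Zic2 and 1 of Zic5. Within 1 kb of a peak there were 4 starts for ESCs, 8 for D-EPSCs and 8 for L-EPSCs, against 46.7%, 58.2% and 55.8% over all those starts, and 12 of the 20 Zic starts belong to Zic4. The starts of 1 gene lie close together and share peaks, so they are not independent of each other.

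**Figure D4:**
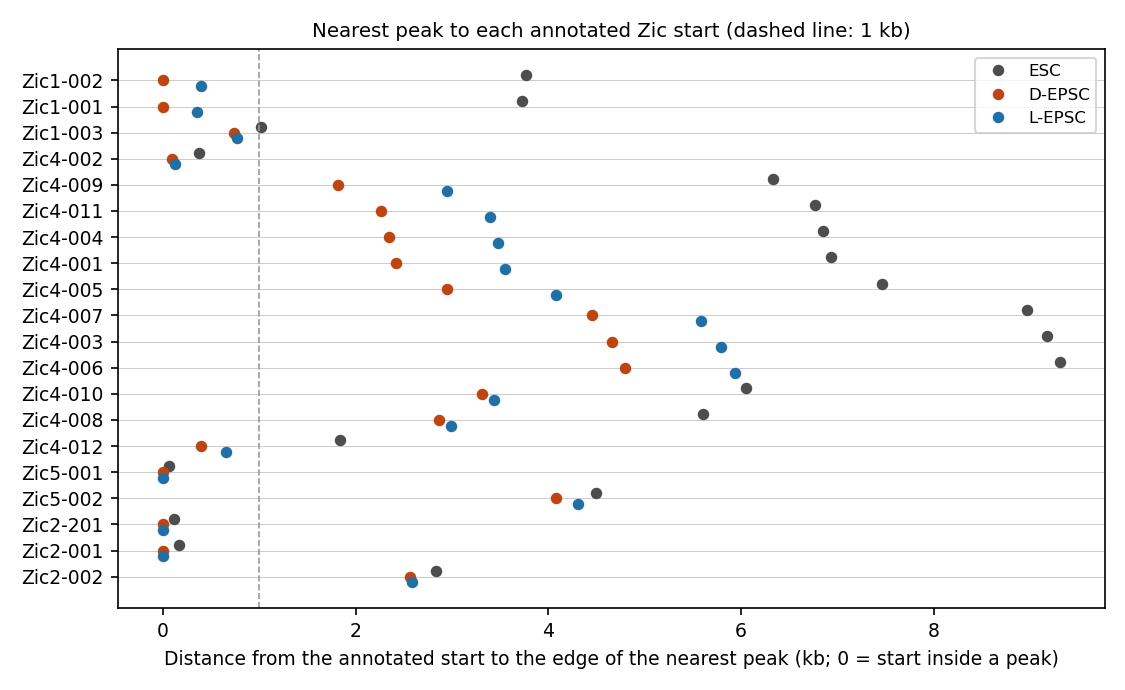
Distance in kb from each of the 20 annotated Zic starts to the edge of the nearest peak of the ESC (grey), D-EPSC (orange) and L-EPSC (blue) lists, where 0 means that the start lies inside a peak and the dashed line marks 1 kb. The starts of Zic5-001, Zic2-201 and Zic2-001 lie at or near 0 in all 3 lists, while Zic1-001 lies at 0 for D-EPSCs, 353 bp for L-EPSCs and 3730 bp for ESCs.

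Most starts of Zic4 lay far from a peak in every list. Of its 12 transcript starts, 1 had an ESC peak within 1 kb, and 2 had a peak of each EPSC list. These were Zic4-002, whose start lies inside Zic1, and Zic4-012, an internal start that lay 399 bp from a D-EPSC peak, 656 bp from an L-EPSC peak and 1837 bp from an ESC peak. The start of Zic4-001 was 6932 bp from the nearest ESC peak, 2421 bp from the nearest D-EPSC peak and 3555 bp from the nearest L-EPSC peak.

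Counted by gene, 3 of the 4 Zic genes had an ESC peak within 1 kb of any annotated start, and all 4 had such a peak in each EPSC list. The background was 52.3% of protein-coding genes in ESCs (95% Wilson interval 51.7% to 53.0%), 64.2% in D-EPSCs (63.5% to 64.8%) and 61.5% in L-EPSCs (60.9% to 62.1%), with intervals that cover counting error only. Zic1 was the member whose start peaks were limited to the EPSC lists, a class that held 9.09% of protein-coding genes (8.72% to 9.47%), or 2033 genes. Its nearest ESC peak was 1016 bp from the start of Zic1-003, just outside the 1 kb limit, and with a limit of 2.5 kb Zic1 had an ESC peak as well. Among those 2033 genes, the D-EPSC peak of Zic1 was wider than the widest start peak of 99.0%, and its L-EPSC peak was wider than that of 81.6%. The class medians were 554 bp and 447 bp.

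The other 3 members belonged to the 11462 genes with a start peak in all 3 lists. Zic5 and Zic2 were at the wide end of that class. The Zic5 start peak was wider than that of 94.7% of these genes for ESCs, 98.3% for D-EPSCs and 94.2% for L-EPSCs, and the Zic2 start peak was wider than that of 93.5%, 98.4% and 95.4%. For Zic4, whose widest start peak in each list was the intronic peak of Zic1, the shares were 1.07%, 17.4% and 23.5%. The class medians were 547, 789 and 741.5 bp.

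Bases covered around each gene were compared next. Of the 48883 bp around Zic5, 5.47%, 10.5% and 8.77% were under ESC, D-EPSC and L-EPSC peaks, and these shares were larger than those of 99.1%, 99.5% and 99.3% of protein-coding genes. Around Zic2 the covered shares of 6.22%, 11.5% and 9.0% exceeded those of 99.6%, 99.8% and 99.4% of genes. The windows of Zic5 and Zic2 overlap and both hold the peaks at the starts of both genes, so their ranks are not independent. In ESCs those peaks, of 1100 and 1058 bp, lay among 2674 covered bases around Zic5 and 2764 around Zic2. Zic1 was near the middle in ESCs, where its 0.695% exceeded that of 41.8% of genes, and higher in D-EPSCs (6.1%, above 93.5% of genes) and L-EPSCs (3.31%, above 76.3%). For Zic4 the covered shares of 0.496%, 4.35% and 2.36% exceeded those of 35.5%, 83.3% and 62.9% of genes. The median window had 0.943%, 1.85% and 1.65% of its bases covered.

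**Figure D5:**
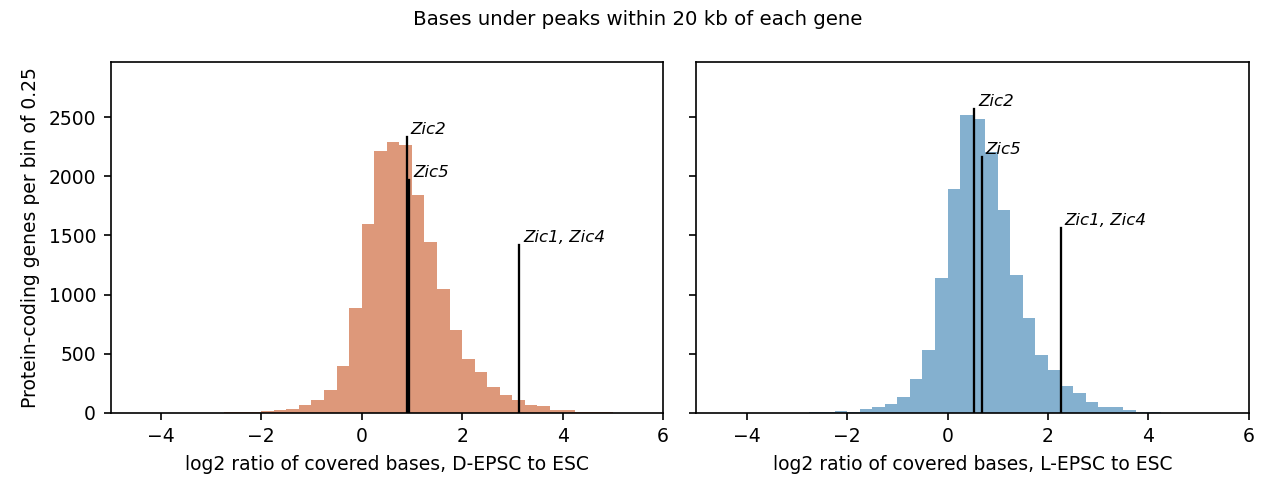
Distribution over protein-coding genes of the log2 ratio of bases under peaks within 20 kb of the gene, D-EPSC to ESC on the left and L-EPSC to ESC on the right, with genes counted in bins of 0.25 and the Zic genes marked by black lines. Genes with no ESC base, or with none in the EPSC list, are not drawn. Zic1 and Zic4 (ratios 8.78 and 4.76) lie in the right tail, and Zic5 and Zic2 lie near the centre.

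Ratios to ESCs could be formed for the 16798 genes with ESC bases in the window. The median ratio was 1.73 for D-EPSCs (quartiles 1.26 and 2.49) and 1.56 for L-EPSCs (1.17 and 2.19). The ratios of 8.78 and 4.76 at Zic1 and Zic4, which share all their peaks, were larger than those of 98.6% and 96.3% of genes. At Zic5 the ratios of 1.92 and 1.6 were larger than those of 58.3% and 52.0% of genes. At Zic2, whose window also holds the Zic5 start peaks, the ratios of 1.86 and 1.45 were larger than those of 55.9% and 43.4%. The distribution of ratios thus places the chromosome 9 pair in the tail and the chromosome 14 pair in the middle, and the denominator of the chromosome 9 ratios is only 332 bp.

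The 14 regions were next sorted by the lists that had a peak in them. Of these, 5 had a peak in all 3 lists (35.7%, against 33.2% of all regions) and 4 in both EPSC lists only (28.6%, against 18.4%). Of the latter, 2 lay at each locus, and that count became 1 at each locus with the 28965 widest peaks of each list, with peaks of at least 128 bp, or with a reciprocal overlap of 50%. D-EPSC peaks alone made up 2 regions (background 22.3%) and L-EPSC peaks alone 1 (background 15.8%). ESC with L-EPSC peaks made up 1 region (background 2.92%), ESC with D-EPSC peaks 1 (background 2.3%) and ESC peaks alone 0 (background 5.12%). With 14 regions, 1 region is 7.14% of them, so these shares are close to the background or rest on 1 to 4 regions.

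In the 5 Zic regions with 1 peak of each list, the median width ratio was 1.61 for D-EPSCs to ESCs and 1.24 for L-EPSCs to ESCs, against 1.25 and 1.21 over 20866 such regions. The ESC peak lay inside the D-EPSC peak in 4 of the 5, against 45.1% of all such regions, and inside the L-EPSC peak in 3, against 42.0%. The exception for both was the intergenic region past the 3′ end of Zic5, where the widths were 269 bp for ESCs, 183 bp for D-EPSCs and 289 bp for L-EPSCs. The other exception for L-EPSCs was the start of Gm10837, where the ESC peak of 606 bp was wider than the L-EPSC peak of 497 bp.

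The intervals between facing starts hold the DNA that each pair shares. Between Zic1 and the next facing start of Zic4 there were 2558 bp, of which the D-EPSC peak of Zic1 covered 740 bp (28.9%) and the other lists covered 0. Among 279 head-to-head pairs of protein-coding genes with starts 2 to 5 kb apart, 62.7%, 78.1% and 73.8% had a peak in the interval in ESCs, D-EPSCs and L-EPSCs. Between Zic5 and Zic2 there were 9706 bp, overlapped by 1 ESC peak (10.9% of the interval), 2 D-EPSC peaks (19.1%) and 3 L-EPSC peaks (19.6%). Of 1300 pairs with starts 5 to 20 kb apart, 3.62%, 14.2% and 12.6% had 3 or more peaks.

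The L-EPSC list had the only peak that lay between Zic5 and Zic2 away from both starts. It was 588 bp wide (chr14:122867672-122868259), intergenic, and 2773 bp from the Zic5-001 start. The middle 300 bases (chr14:122867816-122868115, plus strand) are shown because they had a peak in no other list, and their capitals mark 2 SOX motifs and 1 GC box. The start of 2610035F20Rik, also in this interval, was 632, 157 and 504 bp from the nearest ESC, D-EPSC and L-EPSC peak, in each case the peak upstream of Zic2.
L-EPSC peak between Zic5 and Zic2: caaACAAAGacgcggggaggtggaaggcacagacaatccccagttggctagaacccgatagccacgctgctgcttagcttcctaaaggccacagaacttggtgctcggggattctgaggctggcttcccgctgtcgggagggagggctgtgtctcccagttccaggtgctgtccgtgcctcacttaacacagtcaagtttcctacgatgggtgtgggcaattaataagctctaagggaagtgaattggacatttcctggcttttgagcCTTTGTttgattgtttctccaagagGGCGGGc

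Outside the starts and the interval, the Zic5–Zic2 locus held 6 more regions, including the intergenic region past the 3′ end of Zic5. On the Zic5 side, an intron of the neighbouring gene Gm5089 had peaks of 416 bp (D-EPSC) and 491 bp (L-EPSC) without an ESC peak. The 5′ UTR of Gm5089 had an ESC peak of 247 bp and a D-EPSC peak of 119 bp. On the Zic2 side, intergenic peaks of 143 bp and 687 bp were listed in D-EPSCs and the latter overlapped an L-EPSC peak of 121 bp. The start of Gm10837 had a peak in all 3 lists, 606, 728 and 497 bp wide. No ESC peak was listed between Zic2 and Gm10837. Some peaks at the Zic genes were narrow. Peaks of at most 200 bp were 2 of 7 in ESCs, 4 of 12 in D-EPSCs and 3 of 11 in L-EPSCs, and such peaks made up 18.7%, 22.8% and 22.1% of the whole lists. At most 150 bp were 3 D-EPSC and 2 L-EPSC peaks and 0 ESC peaks, and the narrowest peak of the whole list was 117 bp in D-EPSCs, 118 bp in L-EPSCs and 128 bp in ESCs. Peaks over 1000 bp were 2 of 7 in ESCs, 3 of 12 in D-EPSCs and 2 of 11 in L-EPSCs, and these made up 3.81%, 8.11% and 6.8% of the whole lists. The median width over the whole lists was 369 bp for ESCs, 364 bp for D-EPSCs and 358 bp for L-EPSCs.

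The Zic regions were rich in GC and CpG. Their median GC content was 61.0% and their median CpG ratio 0.683, against 53.5% and 0.292 for all 65518 regions. By class, the medians over all regions were 57.1% and 0.532 where all 3 lists had a peak and 54.1% and 0.307 where both EPSC lists only had one. Motifs were counted in the 400 bases around the centre of each region, which reach past the edges of the 5 Zic regions narrower than 400 bp. The GC box was found in 7 of 14 Zic windows, against 31.4% over all regions, and the ZNF281 motif in 3, against 6.43%. The motif of the Zic proteins themselves was found in 1 window, at the Zic5 start, against 20.2% over all regions. The SOX motif was found in 1 (29.3%), the E box in 1 (8.02%), the NRF1 motif in 1 (0.862%) and the nuclear receptor half-site in 2 (24.6%). GLI, octamer and TCF/LEF letters were in 0 Zic windows and in 0.464%, 2.85% and 4.88% over all regions. The NRF1 match, 1 of the GC box windows and 1 of the half-site windows had their matches outside the region itself. Over their whole widths, which differ, 8 of the 14 regions held a GC box, 4 the ZNF281 motif and 0 the NRF1 motif. The SOX motif, the E box and the nuclear receptor half-site were each held by 3 regions. The Zic motif was also held by 3, namely those at the Zic1 and Zic5 starts and in the Zic4 intron. Shares over all regions were taken only in the 400 bases. GC-rich letters are more frequent in GC-rich DNA, and the share of the GC box was not adjusted for that.

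Gene lists related to the members give the setting. Of the 6 related zinc finger genes Gli1, Gli2, Gli3, Glis1, Glis2 and Glis3, 4 had a start peak in ESCs and 6 in each EPSC list. Gli1, a transcriptional target of Hedgehog signalling, and Glis2 had one in both EPSC lists only. Of 12 annotated Hedgehog pathway genes, 8 had a start peak in ESCs and 10 in each EPSC list. Ptch1, the Hedgehog receptor, was the member with a start peak in both EPSC lists only, while of the ligands Dhh had one in D-EPSCs only, Ihh in L-EPSCs only and Shh in no list. Of 9 annotated genes of the early neural plate and tube, 5, 7 and 6 had a start peak in ESCs, D-EPSCs and L-EPSCs. Otx2, a forebrain and epiblast transcription factor, and Nes, which encodes the intermediate filament nestin, were in both EPSC lists only, Foxd3, a neural crest transcription factor, was in the D-EPSC list only, Gbx2, a homeobox gene of the anterior hindbrain, was in no list, and Hesx1, a forebrain homeobox gene, was in the ESC list only. These counts are read against the background of 52.3%, 64.2% and 61.5%.

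The labelled cell types were checked against marker lists. Of 10 markers of pluripotent stem cells, 9 had a start peak in ESCs and 10 in each EPSC list, where Nanog was the gene without an ESC start peak. Of 10 fibroblast markers, which bear on the feeder cells, 1 had a start peak in the ESC list, 4 in that of D-EPSCs and 2 in that of L-EPSCs, and 6 had none in any list. Col1a1 and Twist1 had a start peak in both EPSC lists, Col1a2 in the D-EPSC list, and Thy1 in the ESC and D-EPSC lists. Of 7 annotated neural markers, 5 had a start peak in ESCs and 7 in each EPSC list. The same background of 52.3%, 64.2% and 61.5% of protein-coding genes applies to these marker counts. The part of other cell types in the Zic peaks was not tested.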

How the data were processed

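ATAC-seq peaks of mouse ESCs, D-EPSCs and L-EPSCs (2 technical replicates per state) were analysed. The authors deposited 1 peak list per state, whose values are the start and end positions of peaks on mm9, with no score, coverage or value per replicate. Reads were aligned by the authors with Bowtie2 2.3.5, kept if properly paired with SAMtools 1.10, and used for peak calling with MACS at default settings. The submitters' processing notes also name FastQC 0.10.1, Trim Galore 0.6.3, cutadapt and HOMER. Duplicate removal, the Tn5 shift, blacklists, the joining of replicates and any filter after peak calling are not given in the sources used here. A missing shift moves edges by a few bases, and depth and duplicates alter how many weak peaks pass and how wide peaks are.

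Positions were made 1-based, and peaks of the autosomes and sex chromosomes were placed against GENCODE M1 with Python 3.11.15, numpy 2.4.6 and pandas 2.3.3. Windows reached 20 kb beyond gene bodies, a start peak lay within 1 kb of an annotated start, and peaks overlapping by 1 bp were merged. The overlap steps were tested on simulated data against bedtools 2.31.1, and 14 of 14 gave equal counts. Lists other than the members were fixed by name, and the text names the members, every region within 20 kb, genes in those windows and genes of those lists. The members and lists were chosen with earlier results of these data known. Disp1 and Sox1 were not matched by symbol and are not analysed here. Alternatives changed the window, start distance, transcripts, peak width and merging. A further stretch of sequence is not reported here.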

Additional observations from a re-analysis of the deposited data

How the results depend on the processing

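No paired analysis was possible because each state has a single deposited list with no value per replicate, and no replicate could be left out for the same reason. Of 92 recomputed values, 78 stayed within 1.5 times the reported value and 14 moved. A reversal was defined only for the 20 recomputed ratios of covered bases to ESCs, of which 0 reversed and all stayed above 1. For the counts, a change in the order of the lists was not scored. Some values could not change. At Zic1–Zic4 the windows of 10 and 50 kb held the same peaks as that of 20 kb. The interval between the bodies of Zic5 and Zic2 is also the interval between their starts. With a window of 50 kb, the Zic5–Zic2 locus held 11 L-EPSC peaks and 4 regions in both EPSC lists only. With the widest 28965 peaks of each list, Zic1–Zic4 held 2 L-EPSC peaks and 1 region in both EPSC lists only, and Zic5–Zic2 held 5 D-EPSC peaks and 1 such region. The D-EPSC count at Zic5–Zic2 then no longer exceeded that of ESCs (5) or L-EPSCs (6). With peaks of at least 128 bp, each locus held 1 region in both EPSC lists only. With peaks set to 400 bp, both Zic1–Zic4 ratios were 2. With a reciprocal overlap of 50%, Zic1–Zic4 held 0 regions in all 3 lists and 1 in both EPSC lists only, and Zic5–Zic2 held 1 in both EPSC lists only. Joining peaks within 500 bp left 1 such region at Zic5–Zic2. The 2 regions in both EPSC lists only at each locus thus include 1 whose L-EPSC peak was under 128 bp wide. The interval between gene bodies could not be formed for Zic1 and Zic4, whose annotated bodies overlap. Depth is unknown, so the larger number of EPSC peaks, the Zic1 start peaks of the EPSC lists, the ratios of covered bases at both loci and the wider EPSC peaks at the Zic5 and Zic2 starts cannot be told apart from deeper sequencing.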
